A study of Mus musculus with 4 samples.

Results

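The 10 genes described here, Sox1, Nes, Tubb3, Map1b, Sox11, Pax6, Ncam1, Crabp1, Dpysl3 and Tuba1a, mark neuroectoderm or neurons, and were chosen by symbol out of 20716 genes in a table of ribosome footprints. The footprints came from mouse embryonic stem cells (ESCs) and embryoid bodies (EBs), which are aggregates grown in suspension to let them differentiate. Both had a C57BL/6 background. There were 4 libraries in 4 groups of 1: wild-type (WT) ESCs, Mettl3-KO ESCs, WT EBs and Mettl3-KO EBs. Mettl3 encodes the catalytic subunit of the enzyme that methylates adenosines in mRNA. The ESCs were held in the naive state in N2B27 medium with LIF, the GSK3 inhibitor CHIR99021 and the MEK inhibitor PD0325901. The EBs grew in serum medium on non-adherent plates for 8 to 21 days, but no source used here gives the day for a single library, the altered part of Mettl3 or the number of clones. No difference between 2 libraries had a replicate check, and an effect of losing Mettl3 and other differences between lines or libraries cannot be told apart.

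Neuroectoderm is the part of the embryonic ectoderm that forms the neural plate. It is marked by transcription factors such as Sox1 and Pax6 and by the intermediate filament protein nestin, encoded by Nes. Neurons that arise from it build long processes from microtubules, made of tubulins such as Tubb3 and Tuba1a and bound by proteins such as Map1b, and they carry adhesion molecules such as Ncam1 on their surface. A footprint count follows both the amount of an mRNA and how densely ribosomes occupy it, and in mixed aggregates fewer cells of a type and less RNA per cell cannot be told apart.

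Of the 10 genes 6 were measurable and 4 were listed at 0 in all 4 libraries. Reads on coding sequences numbered between 4075850 and 11455539 per library, and values are normalised counts in which 1 read was worth 0.778 in ESCs and 1.56 in EBs of WT cells, and 0.533 in ESCs and 1.49 in EBs of KO cells. All 6 measurable genes had a mean value of 25 or more and were kept, among 9670 genes in all. A gene counted as higher or lower at 2-fold or more, on the log2 scale of value + 1. Intervals in parentheses are 95% exact binomial (Clopper-Pearson) intervals of the ratio of reads in 2 libraries, and they cover counting error only.

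Mettl3 methylates adenosines within a short consensus of which GGACT is a common form, so this motif was searched on the coding strand of each coding sequence. It was present in 5 of the 6 measurable genes. Among 9037 genes with a single coding sequence entry and a mean value of 25 or more, 76.9% held it. Within the last 300 coding bases it was found in Nes and Sox11, against 31.5% of those genes. The 30 bases around these 2 motifs, with the motif in capitals, lie in coding sequence of the RefSeq annotation of GRCm38.p6, for Nes at chr3:87979832-87979861 on the plus strand and for Sox11 at chr12:27341250-27341279 on the minus strand.
Nes: gaggatggagaatGGACTagagcaggctga
Sox11: agatgatcgcgggGGACTggctggaggcga
Nes held 10 such motifs, or 1.79 per kb, Map1b 9 (1.22 per kb), Tubb3 3 (2.22), Sox11 3 (2.53), Tuba1a 1 (0.737) and Sox1 0, against a median of 1.08 per kb. Methylation was not measured in these libraries, and a match of letters is a description, not a methylated site.

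A further pair of sequences is shown because Tuba1a, an alpha-tubulin chain, shares nearly all of its coding sequence with close relatives. Tuba1a and its neighbour Tuba1b differ at 23 of 1356 coding bases, and the longest stretch they share runs over 281 bases. The 60 coding bases in which they differ most, coding positions 640 to 699 in both, are shown 5′ to 3′ with differing bases in capitals. They lie in GRCm38.p6 at chr15:98950691-98950750 for Tuba1a and chr15:98932239-98932298 for Tuba1b, both on the minus strand.
Tuba1a: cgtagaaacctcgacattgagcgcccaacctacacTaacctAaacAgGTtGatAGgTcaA
Tuba1b: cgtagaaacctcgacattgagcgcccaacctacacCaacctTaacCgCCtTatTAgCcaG
Of 1329 stretches of 28 nt in the Tuba1a coding sequence, 93.0% have an identical copy elsewhere in the genome, which left 93 without one. The share was 32.0% for Tubb3 and at most 3.74% for Sox1, Nes, Sox11 and Map1b. Alignments without a unique place made up between 48.4% and 55.7% of the counts in the table and were not assigned to genes. Whether a read with several places was counted once or more is not known here. Shares of the reads in the table are therefore approximate.

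Sox1, a transcription factor of the early neural plate (chromosome 8, 12395519 to 12399555 in GRCm38), was the lowest of the measurable genes. Its normalised count was 55.3 in ESCs and 26.5 in EBs of WT cells, and 58.1 in ESCs and 2.99 in EBs of KO cells. The reads behind these values were 71 and 17 in WT cells and 109 and 2 in KO cells. The ESC libraries were alike and above the EB libraries, and KO EBs stood lowest. Between EBs Sox1 was 8.88-fold lower in KO (2.11 to 79.2). From ESCs to EBs it was 2.09-fold lower in WT (1.22 to 3.78) and 19.5-fold lower in KO (5.26 to 163). With a pseudocount of 5 the WT log2 difference was −0.94, short of 2-fold.

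Nestin, an intermediate filament protein of neural progenitors and some other dividing cells (chromosome 3, 87971093 to 87980451), had a normalised count of 362 in ESCs and 123 in EBs of WT cells, and 500.4 in ESCs and 157 in EBs of KO cells. It stood higher in ESCs than in EBs in both genotypes. From ESCs to EBs it was 2.94-fold lower in WT (2.31 to 3.78) and 3.19-fold lower in KO (2.61 to 3.94). Between genotypes the ratio of KO to WT was 1.38 in ESCs (1.24 to 1.55) and 1.27 in EBs (0.942 to 1.73).

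Sox11, a transcription factor of committed neural precursors and immature neurons (chromosome 12, 27334268 to 27342718), showed the reverse order of stages. Its normalised count was 165 in ESCs and 187 in EBs of WT cells, and 126 in ESCs and 231 in EBs of KO cells, and no pair of libraries in the comparisons reached 2-fold. KO EBs stood 1.83-fold above KO ESCs (1.48 to 2.25), while the ratio of WT EBs to WT ESCs was 1.13 (0.898 to 1.42).

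Tubb3, the beta-tubulin chain used as a marker of neurons (chromosome 8, 123411553 to 123422015), had a normalised count of 1418 in ESCs and 553 in EBs of WT cells, and 1341 in ESCs and 1133 in EBs of KO cells. The 2 ESC libraries and the KO EB library lay close together, and WT EBs alone were low. Tubb3 was 2.56-fold lower in WT EBs than in WT ESCs (2.29 to 2.88). In KO EBs it was 1.18-fold lower than in KO ESCs (1.09 to 1.28) and 2.05-fold higher than in WT EBs (1.803 to 2.33).

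Map1b, a large microtubule-associated protein of growing axons (chromosome 13, 99421464 to 99516602), had a normalised count of 1826 in ESCs and 1799 in EBs of WT cells, and 2058 in ESCs and 1203 in EBs of KO cells. Here KO EBs alone stood low. The KO EB value was 1.49-fold below that of WT EBs (1.37 to 1.64) and 1.71-fold below that of KO ESCs (1.59 to 1.85), while the WT libraries differed by a log2 fold of −0.02. Map1b and Tubb3 thus departed from their other libraries in different EBs.

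Tuba1a (chromosome 15, 98949847 to 98953501) had a normalised count of 505 in ESCs and 327 in EBs of WT cells, and 346 in ESCs and 307 in EBs of KO cells. WT ESCs stood highest, 1.46-fold above KO ESCs (1.31 to 1.63) and 1.54-fold above WT EBs (1.32 to 1.81). The paralog Tuba1b was also highest in WT ESCs and lowest in KO EBs, with 439.8 in ESCs and 324 in EBs of WT cells, and 307 in ESCs and 302 in EBs of KO cells, but 96.9% of its 28-nt stretches are copied as well, so reads of the 2 genes are uncertain.

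**Figure D1:**
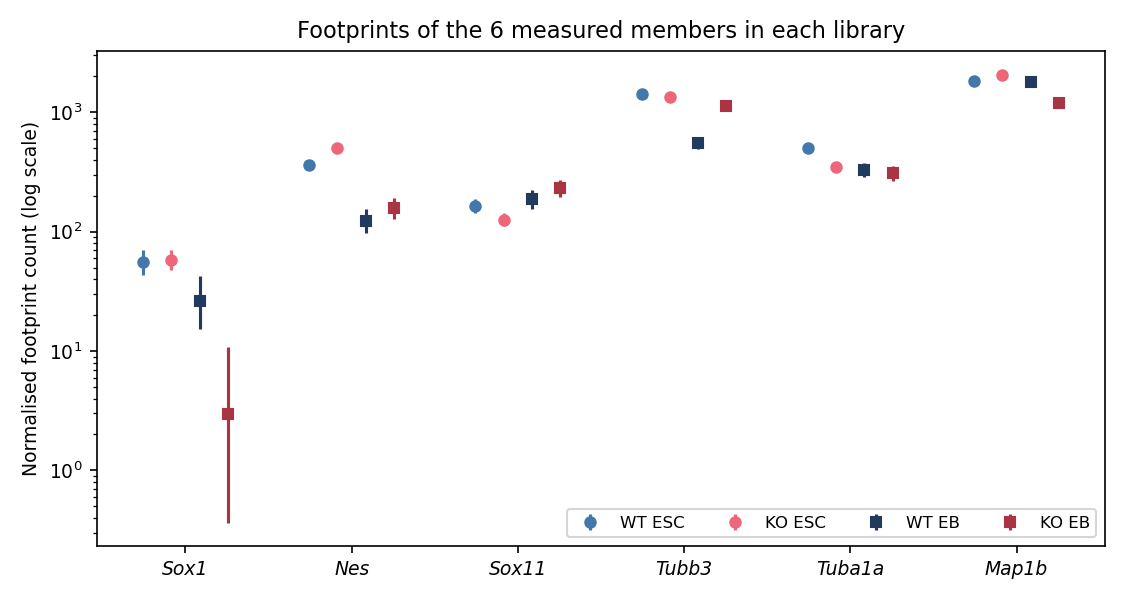
Normalised footprint count (log axis) of the 6 measurable genes in each of the 4 libraries; bars are 95% exact Poisson intervals of the read count. Sox1 stands lowest in KO EBs at 2.99, Nes is higher in both ESC libraries than in both EB libraries, and Tubb3 is low in WT EBs alone at 553.

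Set side by side, the comparisons of genotype differed between stages. In ESCs 0 of the 6 measurable genes were 2-fold apart, against a background of 10.6% higher and 4.42% lower among all genes tested, and their log2 folds ran from −0.55 for Tuba1a to 0.47 for Nes. In EBs 1 of 6 was higher in KO (Tubb3) and 1 of 6 lower (Sox1), against a background of 15.2% higher and 12.2% lower, or 27.4% in either direction. The median log2 fold of the 6 was 0.00 in ESCs and 0.11 in EBs, where the median of all genes tested was 0.00 and −0.07. With so few genes these shares lie near the background and show nothing particular to the set.

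The comparisons of stage leaned to lower values in EBs. In WT cells 3 of 6 genes (Sox1, Nes and Tubb3) were lower in EBs and 0 higher, against a background of 8.25% lower and 11% higher. In KO cells 2 of 6 (Sox1 and Nes) were lower and 0 higher, against 6.65% lower and 9.31% higher. The median log2 fold was −0.83 in WT and −0.51 in KO, where that of all genes tested was −0.02 and −0.08. Each library enters 2 of the 4 comparisons, so these comparisons are not independent of each other. Sox1 passed the filter through the ESC libraries, where it was high, so its lower values in EBs are a description. With Sox1 left out, 2 of 5 genes were lower in WT EBs and 1 of 5 in KO EBs.

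**Figure D2:**
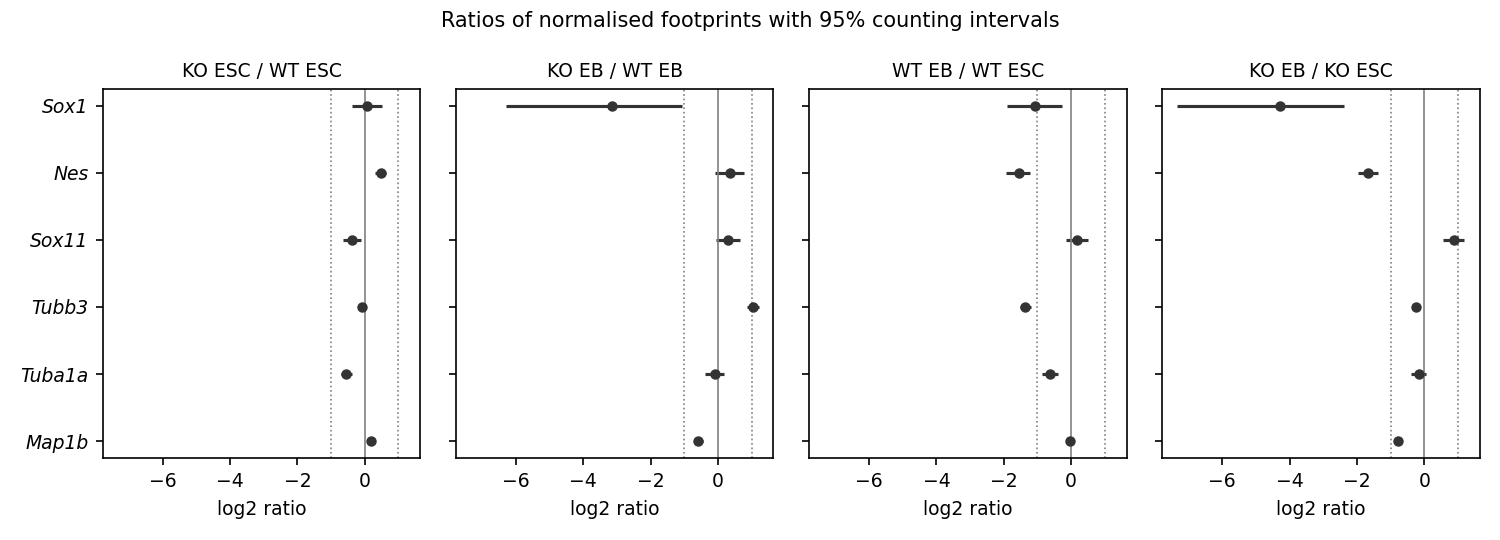
Log2 ratio of normalised footprints for the 6 measurable genes in the 4 comparisons, with 95% exact binomial intervals of the ratio; dotted lines mark 2-fold. Tubb3 lies at 2.05-fold in KO EBs over WT EBs, and Sox1 has the widest intervals because KO EBs held 2 reads.

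The EB change of KO cells minus that of WT cells reached 1 or more on the log2 scale for 2 of 6 genes, against 23.9% of all genes tested. It was −2.86 for Sox1 (counting SE 1.10) and 1.11 for Tubb3 (0.103). For the others it was −0.75 for Map1b (0.0762), 0.69 for Sox11 (0.222), 0.46 for Tuba1a (0.163) and −0.12 for Nes (0.23). These SEs come from read counts alone and hold no spread between cultures.

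A count test on the recovered whole reads, with stage and genotype as terms over the 4 libraries, lets each genotype stand as the other's replicate for stage. By edgeR's quasi-likelihood test with Benjamini-Hochberg adjustment 0 of the 6 genes passed an adjusted p of 0.05 for stage, against 0.259% of all genes. Nes came nearest, at −1.59 on the log2 scale with an unadjusted p of 0.0026 and an adjusted p of 0.132. With DESeq2 Nes passed, at −1.59 (SE 0.46) with an adjusted p of 0.019, against 3.95% of all genes. For genotype edgeR called 0 genes in the whole table (unadjusted p below 0.05 for 1556 genes), and DESeq2 3.33% of them. None of the 6 passed by either tool, and the smallest adjusted p was 0.517 for Tubb3 by edgeR and 0.654 for Tubb3 by DESeq2. The genotype term averages over the stages, so a KO difference that changes with stage enters the spread. The test therefore cannot decide on a difference seen in EBs alone.

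Levels were compared between genes per kb of coding sequence. In WT ESCs Tubb3 stood at 1048 per kb, Tuba1a at 373, Map1b at 247, Sox11 at 139, Nes at 64.7 and Sox1 at 47.0. The median stood at 238 over the 9037 genes with a single entry and a mean value of 25 or more. Tubb3 thus lay at percentile 84.9 of those genes in ESCs and 62.8 in EBs of WT cells, and 85.2 in ESCs and 81.6 in EBs of KO cells. Map1b lay between percentiles 40.4 and 52.3 in the 4 libraries. Nes lay at 22.4 and 25.99 in WT and KO ESCs and at 8.17 and 8.51 in WT and KO EBs, and Sox1 at 17.7, 15.9, 8.39 and 0.31 in WT ESCs, KO ESCs, WT EBs and KO EBs. The order of these genes depended on how copied sequence was treated. Divided by the 28-nt stretches without a copy elsewhere, the WT ESC count of Tuba1a was 5432 per 1000 stretches and that of Tubb3 1572, so that Tuba1a stood above Tubb3 rather than below it.

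**Figure D3:**
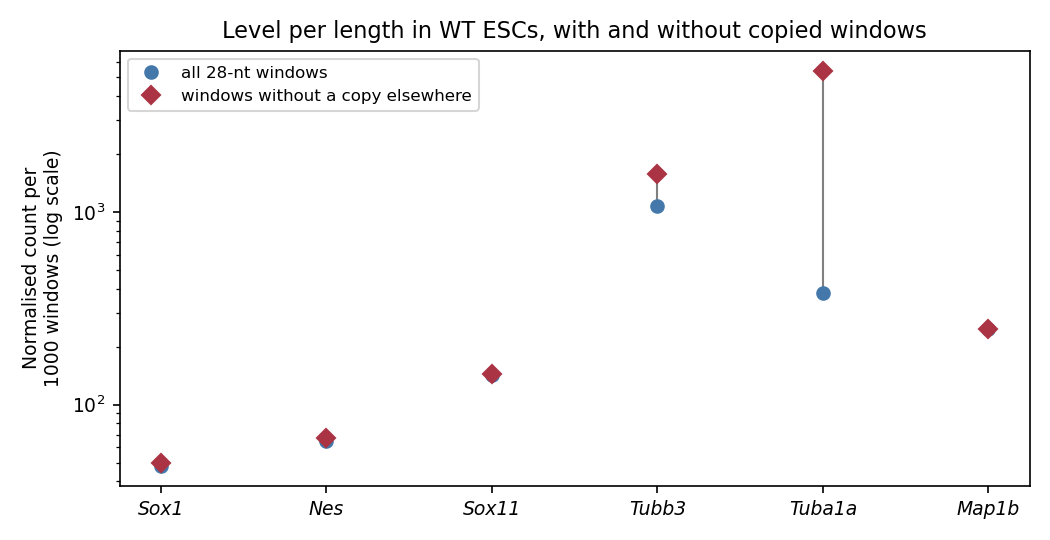
Normalised count in WT ESCs per 1000 stretches of 28 nt of coding sequence (log axis), over all stretches (circles) and over those without an identical copy elsewhere in the genome (diamonds). Tuba1a moves from 380.1 to 5432 and Tubb3 from 1069 to 1572, while the other 4 genes barely move.

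The 4 genes listed at 0 are Pax6, Ncam1, Crabp1 and Dpysl3. All of them have more than 1 coding sequence entry in the table, while the 6 measurable genes have 1 each. HTSeq, the counting program named in the processing notes, by default sets aside a read on bases that several entries share as ambiguous; the mode used is not known here. Ambiguous reads were between 8.62% and 10.5% of the reads in the table. Pax6, a transcription factor of the neural tube and eye (chromosome 2, 105668896 to 105698410), has 5 entries and 0 stretches of 28 nt that belong to a single entry. Dpysl3, a protein of the growth cone (chromosome 18, 43320979 to 43438286), has 2 entries with 6 and 12 such private stretches.

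For these 2 genes almost no footprint could have fallen on bases of a single entry. Crabp1, which binds retinoic acid in the cytoplasm (chromosome 9, 54764748 to 54773110), has 87 private stretches, all in the longer of its 2 entries. Ncam1, the neural cell adhesion molecule (chromosome 9, 49502129 to 49799393), has 824 over its 3 entries, 774 of them in NM_001113204. A count of 0 allows up to 3 reads on those stretches, or a normalised count of 2.34 in ESCs and 4.68 in EBs of WT cells, and 1.60 in ESCs and 4.48 in EBs of KO cells. It sets no limit on the stretches the entries share. Among the 1618 genes with several entries and no private stretch 95.8% were at 0 in every library, as were 65.3% of the 986 with 1 to 100 private stretches, 35.7% of the 1276 with over 100, and 21.0% of the 16441 genes with a single entry and private sequence. Fibronectin, Fn1, made by many cultured cells, was also listed at 0 with 246 private stretches over 7 entries; it was chosen for mention after its values were seen.

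**Figure D4:**
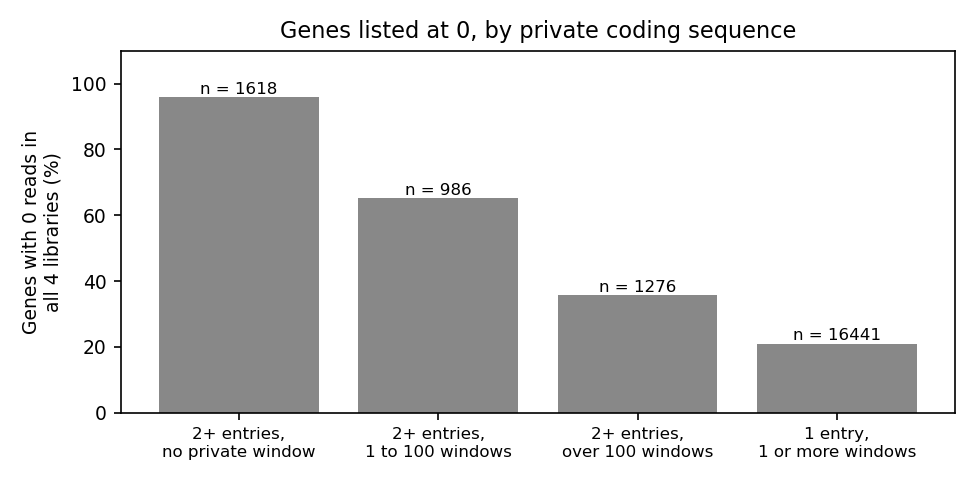
Percent of genes with 0 reads in all 4 libraries, by number of coding sequence entries and of 28-nt stretches private to 1 entry; n is the number of genes in each class. The share runs from 95.8% with no private stretch to 21.0% for genes with 1 entry.

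Other markers of the cultures were read beside these values. Of 12 visceral endoderm genes 11 passed the filter, and the summed normalised count of the list was 205 in ESCs and 46779 in EBs of WT cells, and 248 in ESCs and 1754 in EBs of KO cells, or 0.709% of gene reads in WT EBs and 0.0288% in KO EBs. The naive pluripotency list (10 of 12 passed) summed to 28208, 18610.2, 13034 and 21566 in the order WT ESCs, KO ESCs, WT EBs, KO EBs. The mesenchyme and matrix list (10 of 14) summed to 6121, 7251, 10640.1 and 14668 in the same order, and the trophoblast list (7 of 10) to 383, 1236, 5784 and 4621. Such sums follow the most abundant genes, as Sparc in the mesenchyme list and Krt18 and Krt8 in the trophoblast list. Between EBs the trophoblast sum was lower in KO, but 2 of the 7 genes were higher and 0 lower (median 0.39). Over all genes tested 15.2% were higher and 12.2% lower. Listed at 0 were Dab2, Tbx3, Fn1, Postn, Pdgfra, Pdgfrb, Eomes and Elf5, all with 2 or more entries. Between EBs, the log2 folds of KO over WT ran from −5.85 for Ttr and −5.59 for Cubn to −2.56 for Gata6 and −2.55 for Hnf4a in the endoderm list, and from −1.54 for Acta2 and −1.53 for Tagln to 4.11 for Col3a1 and 4.16 for Col6a1 in the mesenchyme list. They ran from −1.66 for Dppa3 and −0.46 for Klf5 to 1.48 for Fgf4 and 2.16 for Klf4 in the naive list, and from −0.84 for Krt18 and −0.74 for Krt8 to 2.85 for Hand1 and 2.87 for Ascl2 in the trophoblast list. Hand1 passed the filter only through KO EBs and Ttr only through WT EBs, where each was high. The sum of the naive list was thus lowest in WT EBs, the library in which Tubb3 also stood low, but its genes did not all follow the sum. Of the 10 that passed, 4 were higher and 1 lower in KO EBs against WT EBs, beside 15.2% and 12.2% of all genes tested. Dppa3 stood highest in WT EBs, Klf5 was lowest in KO EBs, and Zfp42 and Tcl1 were lowest in KO ESCs. The part of these cell types in the values of the 6 genes was not tested.

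The label of the genes was set against other genes of neural cells with 1 entry each, named here after their values were seen. The proneural factor Neurog2 stood between 0 and 1.07 in the 4 libraries. Fabp7, a lipid carrier of radial glia, stood between 0 and 4.48, and Hes5, a Notch target of neural progenitors, between 0 and 1.49. Other progenitor genes were well covered in every library. Sox2, which pluripotent cells also express, stood between 2856 and 4524, Notch1 between 2147 and 7089, and Msi1, an RNA-binding protein of progenitors, between 184 and 376. Neural genes thus included both low and high ones, and which cells of the cultures gave these footprints was not tested.

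The 11 other lists of neural genes held 189 genes, of which 94 passed the filter. In KO EBs against WT EBs 23 of the 94 were higher and 9 lower, against 15.2% and 12.2% of all genes tested, and the median log2 fold was 0.31. In WT EBs against WT ESCs 16 were higher and 28 lower (median −0.29), against 11% and 8.25%. In KO cells 14 were higher and 12 lower (median 0.12), against 9.31% and 6.65%. In KO ESCs against WT ESCs 14 were higher and 14 lower (median −0.04), against 10.6% and 4.42%. The medians of all genes tested lay between −0.08 and 0.00. A gene can pass the filter through the library in which it is high, so these counts are a description of the lists.

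Of 31 progenitor transcription factors 12 passed. In KO EBs 2 of these were higher and 1 lower (median 0.36), against 15.2% and 12.2% of all genes tested. Sox3, a partner of Sox1 in the neural plate, stood at 43.6 in EBs of WT cells and 243 in those of KO cells (5.58-fold, 3.72 to 8.65), opposite in direction to Sox1. En2, a midbrain and hindbrain factor, was 5.59-fold higher (3.01 to 11.3), and Hesx1, a factor of the anterior neural plate, was 6.59-fold lower (3.87 to 12.0). Pou3f1 had a log2 fold of −0.34. Among genes of progenitor structure and signalling (12 of 17 passed, 2 higher, 0 lower, median 0.52) the Wnt antagonist Sfrp1 stood at 459.8 in EBs of WT cells and 2596 in those of KO cells (5.65-fold, 4.99 to 6.41). The receptor Notch1 was 2.68-fold higher (2.53 to 2.83). Cdh2 and Slc1a3 had log2 folds of −0.78 and −0.58.

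Proneural and neuronal transcription factors (6 of 21 passed) had 1 higher and 1 lower in KO EBs and a median of 0.21. Over all genes tested 15.2% were higher and 12.2% lower. Neurod1 was 2.52-fold lower (1.25 to 5.43), and the ratio for Ebf1 was 2.11 (0.957 to 4.98). Sox4, of the same Sox group as Sox11, had a log2 fold of −0.40, and Pou4f1 0.58. Neuronal RNA-binding proteins (4 of 10 passed, 2 higher, 0 lower, median 0.43) included Nova2, a splicing regulator, at 49.9 and 213 (4.28-fold, 2.90 to 6.49). Rbfox2, with 9 entries, had a ratio of 2.63 (0.78 to 11.3), and Elavl2 and Elavl3 had log2 folds of −0.55 and −0.40.

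The tubulins were the nearest relatives of Tubb3 and Tuba1a. Of 13 genes 11 passed. In KO EBs against WT EBs 0 of these were 2-fold apart, and the median was 0.04. Over all genes tested 15.2% were higher and 12.2% lower. Tubb2a (72.0% copied) and Tuba4a (10.98% copied) came nearest, 1.95-fold (1.63 to 2.34) and 1.94-fold higher, beside the 2.05-fold of Tubb3. Tube1 and Tubg1 had log2 folds of −0.88 and −0.61. In WT EBs against WT ESCs 2 of the 11 tubulins were lower, against 8.25% of all genes tested. They were Tubb2a (2.36-fold, 2.01 to 2.77) and Tubb2b (79.8% copied, 2.30-fold, 2.05 to 2.58), beside the 2.56-fold of Tubb3. These 2 were named after their values were seen. Genes of the neuronal cytoskeleton and growth cone (16 of 24 passed) had 4 higher and 1 lower in KO EBs, with a median of 0.35. The shares over all genes tested were again 15.2% and 12.2%. The growth cone protein Gap43 stood at 7.79 and 35.8 (4.597-fold, 1.72 to 15.4) and Basp1 was 3.64-fold higher (3.29 to 4.03). Dpysl2, of the same family as Dpysl3, was 2.20-fold lower (1.73 to 2.80), and Stmn3 had a log2 fold of −0.77.

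Neural adhesion genes, the list nearest to Ncam1, had 9 of 20 passing, 3 higher and 1 lower in KO EBs, and a median of −0.05. Among all genes tested 15.2% were higher and 12.2% lower. The semaphorin receptor Nrp1 was 2.87-fold (1.66 to 5.21) and the cadherin Cdh4 2.59-fold higher (1.84 to 3.70), Cntn2 was 3.13-fold lower (1.75 to 5.91), and Plxna2 had a log2 fold of −0.36. Synapse and excitability genes (5 of 16 passed, 2 higher, 0 lower, median 0.70) were led by the sodium channel Scn3a, at 1.56, a single read, in EBs of WT cells and 40.3 in those of KO cells (25.9-fold, 4.26 to 1062), and by Gad1, which makes the transmitter GABA (4.06-fold, 2.37 to 7.34). Stx1a and Chga had log2 folds of −0.81 and −0.28. Nrp1 and Gad1 passed the filter only through KO EBs, where they were high.

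The retinoic acid pathway, to which Crabp1 belongs, had 11 of 19 genes passing, 5 lower and 2 higher in KO EBs and a median of −0.68, against 12.2% lower, 15.2% higher and a median of −0.07 over all genes tested. Cyp26a1, which degrades retinoic acid, stood at 9.34 in ESCs and 1562 in EBs of WT cells, and 8.54 in ESCs and 94.0 in EBs of KO cells, 16.6-fold lower in the KO library of EBs (12.9 to 21.8). The retinol carrier Rbp4, with 2 entries, was 20.5-fold lower (11.2 to 41.7) and passed the filter only through WT EBs. Aldh1a3, a retinoic acid synthesising enzyme, was 4.597-fold higher (1.72 to 15.4), and the receptor Rxra 2.28-fold (1.88 to 2.76). All 11 visceral endoderm genes that passed were lower in KO EBs too, with a median of −4.27. Ttr and Foxa2 among them passed the filter only through WT EBs, where they were high. The part of these 11 genes in the retinoid values was not tested.

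Neural crest genes (6 of 10 passed) had 5 higher and 0 lower in KO EBs, with a median of 2.21, against 15.2%, 12.2% and a median of −0.07 over all genes tested. Of these, Sox10 and Snai2 passed the filter only through KO EBs, where they were high. Sox10, a crest and glial factor, stood at 0.778 in ESCs and 9.35 in EBs of WT cells, and 11.7 in ESCs and 118 in EBs of KO cells, 12.6-fold higher in the KO library of EBs (5.54 to 35.4). Snai2, also expressed in mesenchyme, was 10.5-fold higher (3.30 to 53.7), Foxd3, also expressed in pluripotent cells, 2.79-fold (2.30 to 3.39), and Erbb3 1.72-fold (1.59 to 1.85). Of the mesenchyme and matrix markers 7 of 10 were higher and 2 lower (median 2.43), against the same 15.2% and 12.2%. The part of these markers in the crest values was not tested. Of 8 glial genes 2 passed, and neither was 2-fold apart in EBs: Olig1 had a log2 fold of −0.75 and Aldh1l1 −0.67.

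**Figure D5:**
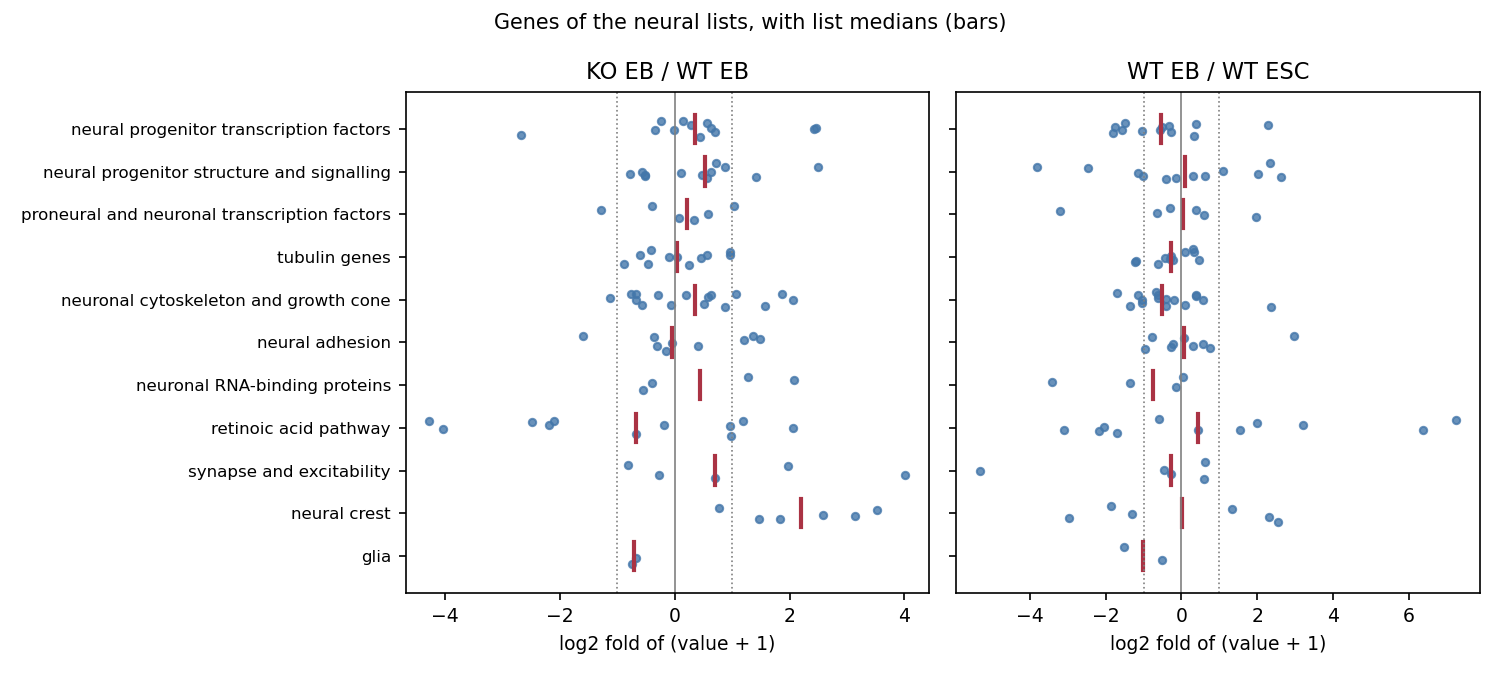
Log2 fold of value + 1 for genes of the 11 neural lists that passed the filter, in KO EBs against WT EBs (left) and WT EBs against WT ESCs (right); each point is a gene, bars are list medians and dotted lines mark 2-fold. The neural crest median of 2.21 is the farthest right on the left panel, and the retinoic acid list runs from Rbp4 and Cyp26a1 at the left to Aldh1a3 at the right.

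Over the 4 libraries the genes with patterns nearest to Tubb3, by root mean square distance of centred log2 values among 7345 genes, were Nectin1 (0.0761) and Poglut1 (0.079). Nectin1 stood at 629.7 in ESCs and 267 in EBs of WT cells, and 689 in ESCs and 531 in EBs of KO cells. Those nearest to Nes were Reep1 (0.156) and Socs3 (0.166). Sox1 had no close neighbour among the genes searched: Fam81a (0.67) and Tex15 (0.728) came nearest, and their KO EB values were 29.9 and 50.8. A distance over 4 libraries is a description of these libraries.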

How the data were processed

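Each deposited value is a library-scaled signal, for 1 coding sequence of RefSeq, that the authors obtained from counted reads. The submitters' processing notes list build mm10 and the tools HTSeq 0.6.0, TopHat2 2.0.10, CASAVA 1.8.2, Bowtie and DESeq, without a role; no source used here gives settings, annotation version or strand. The values proved to be whole numbers of reads times a step that is constant within a library (100% of values, tolerance 0.01), and those reads were recovered. The 5 summary entries that name no gene (between 66.6% and 72.1% of reads) stayed out of library sizes and tests. Of 27442 entries 27083 matched a symbol in RefSeq's table of GRCm38.p6, the assembly of mm10, and entries were summed per symbol; 0 columns were left unmatched.

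Log2 folds used a pseudocount of 1 and were called at 2-fold. The count test on recovered reads used edgeR 4.0.16 and DESeq2 1.42.0, with stage and genotype as terms. Only edgeR was tried on simulated data, which held changes by stage alone, so its genotype term was not checked. By stage edgeR called 20 genes higher and 5 lower. Coding positions and sequences came from the RefSeq annotation and genome of GRCm38.p6. A 28-nt stretch was private when none of its bases lay in another entry's coding sequence, and copied when identical to a place elsewhere on the chromosomes, on either strand. Named were the 10 members, the 2 highest and 2 lowest genes of each neural and marker list in KO EBs against WT EBs, and the 2 nearest patterns of each member at least 2-fold apart between its highest and lowest library. The members and lists were chosen with earlier results of these data known. Python 3.11.15 was used.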

Additional observations from a re-analysis of the deposited data

Results flagged for a closer look

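The ratio of KO to WT pointed in opposite directions in ESCs and EBs for 4 of the 6 measurable genes. This difference was not tested against replicates. The share of all genes tested with opposite directions was not counted, so the 4 have no background. Which genes had opposite directions also depended on scaling. When gene totals were made equal between libraries, the log2 fold of Tubb3 in ESCs moved from −0.08 to 0.05. That of Tuba1a in EBs moved from −0.09 to 0.03, against −0.42 in ESCs. Tubb3 thus left the count and Tuba1a entered it. The EB change of KO cells minus that of WT cells was −2.86 for Sox1, 1.11 for Tubb3, −0.75 for Map1b and 0.69 for Sox11 on the log2 scale. Only for Map1b did the counting intervals of both stages leave out equality, at 1.13-fold higher in KO ESCs (1.07 to 1.19) and 1.49-fold lower in KO EBs (1.37 to 1.64).

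Reads set aside as ambiguous, which enter no gene, reached 10.5% of the reads in the table in KO ESCs.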

How the results depend on the processing

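The log2 folds of the 6 genes in the 4 comparisons were recomputed under 7 alternatives of pseudocount, filter, scaling and the choice of entries. Values with no filter (24), a filter of a mean of at least 100 (20) and only the highest entry (24) could not change. A filter does not alter a fold, and each of the 6 genes had 1 entry. Of all 164 recomputed values, these included, 162 stayed within the counting interval of the reported ratio, and 0 of those at least 2-fold changed sign. The other 2 came from scaling each library to the same total, which moved the median of all genes by 0.127 in ESCs and 0.118 in EBs for KO against WT: Tubb3 stood at 0.05 and Map1b at 0.30 in KO ESCs. A filter of a mean of at least 100 removed Sox1, which left 5 genes, and cut the genes 2-fold apart from 2 to 1 in KO EBs against WT EBs, from 2 to 1 in KO EBs against KO ESCs, from 3 to 2 in WT EBs against WT ESCs, and from 2 to 1 for the difference of the EB change. A pseudocount of 5 also left 2 of 3 in WT EBs against WT ESCs. The alternatives for that difference were added after the data were seen. By genotype the mean of the 2 log2 folds reached 1 for 1 gene, and edgeR and DESeq2 called 0; by stage it reached 1 for 2 genes, and edgeR called 0 and DESeq2 1. Over all genes the number 2-fold apart depended on the filter: in KO EBs against WT EBs 1469 were higher and 1177 lower as reported, 3100 and 2096 with no filter, and 810 and 803 at a mean of at least 100. No paired analysis was possible because each group has 1 library and the labels give no replicate numbers. Depth limits Sox1 most, with 17 and 2 reads in the EB libraries.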

Other observations

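Across the 11 other neural lists 42 of 189 genes were listed at 0 in every library, and 39 of these had 2 or more coding sequence entries, as 57 of the 189 genes did. Genes with a single entry and 0 reads numbered 3. Neuronal markers among those listed at 0 with several entries were Dcx and Map2 of the neuronal cytoskeleton and the nuclear protein Rbfox3; Dcx and Rbfox3 had 0 stretches of 28 nt private to an entry and Map2 had 66.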
